A study of Mus musculus with 24 samples.

Results

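The mitochondrial respiratory chain and ATP synthase are assembled from mitochondrially encoded proteins and a much larger number made from nuclear genes. The nuclear genes described here are those whose symbol begins with Ndufa, Ndufb, Ndufc, Ndufs or Ndufv and a number, with Uqcr, with Cox4 to Cox8, or with Atp5. The rule used the symbols and no measured value. It found 83 of the 25160 genes in the deposited table, of which 79 code for subunits: 35 of complex I, 8 of complex III, 19 of complex IV and 17 of complex V. The other 4 were Cox7a2l, which codes for a factor that joins complexes III and IV into supercomplexes, and the gene copies Ndufs5-ps, Ndufa11b and Ndufb4c. Ndufa4, named as a complex I gene, was counted with complex IV, where its protein is now placed.

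The cells were RAW 264.7, a mouse macrophage line. Stable lines carried a doxycycline-inducible construct for Nur77, the orphan nuclear receptor that the gene Nr4a1 encodes, or for GFP, the green fluorescent protein used as the control. Both received 50 ng/ml doxycycline for 18 h and then LPS, the bacterial lipopolysaccharide that activates macrophages through Toll-like receptor 4, at 500 ng/ml for 0, 1 or 5 h. Each of the 6 combinations of line and time had 4 mRNA-seq libraries. The study asked how Nur77 restrains the inflammatory response, in particular at genes controlled by the transcription factor AP-1. Each construct was present in a single stable line, so the construct and other differences between the lines cannot be told apart. The labels do not say whether the 4 libraries of a group came from separate cultures, so the p-values measure the spread between these libraries, which may be technical.

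Complex I takes electrons from NADH, complex III passes them from ubiquinol to cytochrome c, and complex IV passes them to oxygen. All 3 pump protons, and complex V, the ATP synthase, uses the proton gradient to make ATP. In macrophages, LPS is known to shift energy metabolism towards glycolysis, and electron flow back through complex I is a known source of reactive oxygen species. Nuclear respiratory genes are known targets of the factors NRF1, GABPA (an ETS family protein) and the ERR nuclear receptors, which work with the coactivators PGC-1α (gene Ppargc1a) and PGC-1β (gene Ppargc1b). Nur77 binds DNA as a monomer at the NBRE element.

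Promoters of 65 of the 83 genes were matched in RefSeq (build GRCm38.p6), in windows of 300 bases that began 250 bases before the annotated start. The promoters of 5 of them are printed because they hold a motif of one of these factors and belong to genes whose levels differed between lines or times. All are read 5′ to 3′ along the gene, and each ends at the base before an annotated start. For Atp5g3 this start lies inside the gene, which on the minus strand begins at chr2:73912464. Capitals mark the motif letters. The window of Uqcrh, the complex III hinge protein gene, is 250 bases on the minus strand at chr4:116075071-116075320, with an AP-1 match 203 bases and an ETS match 10 bases before the start. Windows of 100 bases are given for Ndufa11 (chr17:56717662-56717761, plus strand), Atp5k (chr5:108434400-108434499, minus strand) and Atp5g2 (chr15:102671048-102671147, minus strand), each with an NRF1 palindrome, and for Atp5g3 (chr2:73911327-73911426, minus strand), with an ERR match.
Uqcrh: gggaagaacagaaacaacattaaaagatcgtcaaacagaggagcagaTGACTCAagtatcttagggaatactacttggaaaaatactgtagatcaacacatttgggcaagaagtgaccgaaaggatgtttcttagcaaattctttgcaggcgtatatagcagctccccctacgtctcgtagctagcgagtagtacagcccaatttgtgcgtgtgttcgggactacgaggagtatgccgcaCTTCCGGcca
Ndufa11: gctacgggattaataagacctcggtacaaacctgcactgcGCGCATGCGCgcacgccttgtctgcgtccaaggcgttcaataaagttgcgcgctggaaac
Atp5k: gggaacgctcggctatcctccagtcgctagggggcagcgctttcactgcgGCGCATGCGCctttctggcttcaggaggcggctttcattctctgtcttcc
Atp5g2: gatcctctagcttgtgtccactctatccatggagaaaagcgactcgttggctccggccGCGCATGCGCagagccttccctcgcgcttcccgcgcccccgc
Atp5g3: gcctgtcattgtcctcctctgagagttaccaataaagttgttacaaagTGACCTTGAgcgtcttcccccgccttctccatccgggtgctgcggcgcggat

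The motifs were searched as exact letters on both strands: GCGCA followed by its reverse complement for NRF1, CCGGAAG for ETS factors, TCAAGGTCA for ERR, AAAGGTCA for the Nur77 NBRE and TGANTCA for AP-1. The ERR and NBRE letters share the run AGGTCA. The NRF1 palindrome was in 7.46% of the 67 promoters of tested respiratory genes, against 2.11% of the promoters of all tested genes and 0.971% of all 32851 promoters. It lay 60 bases before the start in Ndufa11, 50 in Atp5k and 42 in Atp5g2, and was also found in Cox6a1 and Uqcrc1. The ETS letters were in 22.4% of the tested respiratory promoters, 18% of the promoters of all tested genes and 8.86% of all promoters. The AP-1 letters were in 10.4%, 5.17% and 7.81% of the same sets. The respiratory genes with them were Uqcrh, Atp5c1, Atp5g1, Cox7c, Ndufa13, Ndufa5 and Ndufa9. The ERR letters were in 1.49% (Atp5g3, 52 bases before a start inside the gene), 0.285% and 0.423% of these sets. The NBRE letters were in 0 of the 67 respiratory promoters, 1.02% of the promoters of all tested genes and 1.51% of all promoters. A missing match says only that these letters are not in this window, and a match is no evidence of binding.

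Total gene counts ran from 8134143 to 29275847 per library. All 10 macrophage markers were above 1 CPM (the gene's share of its library's counts, scaled to a common total) in every group, and the summed markers of fibroblasts, lymphocytes and epithelium were below 1 CPM in every library. Those of neutrophils summed to 1.07 to 4.64 CPM, with S100a8 the 1 of 6 above 1 CPM in each group. The macrophage markers summed to 6412 to 6653 CPM in the Nur77 line and 10651 to 10876.5 CPM in the GFP line at 0 h, and the part of this difference in the results was not tested. Endogenous and construct-derived Nr4a1 reads could not be separated, and the gene had 3.29 ± 0.408 CPM in the Nur77 line and 3.07 ± 0.376 CPM in the GFP line at 0 h (SD, n = 4 each), so it does not check the line labels. At 1 h Nr4a1 was lower in the Nur77 line, at 32.9 ± 15.8 CPM against 61.8 ± 6.69 CPM in the GFP line (SD, n = 4 each). The log2 fold change was -0.91 (adjusted p = 0.00481, edgeR). Between the lines Nr4a1 did not pass at 0 h or at 5 h. Replicate 2 of the Nur77 line at 1 h stood apart from its group across all genes. Its root mean square distance from the mean of the other 3 was 0.525 on the log2 scale, against 0.308 to 0.36 for those 3. Its Nr4a1 level was 9.29 CPM, against 39.8 to 42.4 CPM in the others. Counts of called genes at 1 h that use this library are also given without it.

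Of the 83 genes, 76 passed the filter on low counts. The 7 that did not were Cox6b2, Cox7b2, Cox8b and Cox8c, tissue-restricted isoforms of complex IV, with Ndufa4l2, Ndufa11b and Ndufb4c. The untested genes were close to unread: Ndufa4l2 and Ndufb4c had 1 to 12 counts per library, and the rest 0 or 0.5 counts in all 24 libraries together. Differences are log2 fold changes of edgeR's quasi-likelihood test, and a gene is said to differ at an adjusted p under 0.05 (Benjamini-Hochberg over 12213 genes). All levels are CPM with TMM scaling, and levels of different genes are compared only per kilobase of transcript. CPM are relative to the mRNA pool, and in bulk samples fewer cells of a kind and less RNA per cell cannot be told apart.

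Before LPS, part of the respiratory chain genes of each of the 4 complexes were lower in the Nur77 line than in the GFP line. Of the 76 tested genes 27 were lower and 0 were higher, where 19.7% of all tested genes were lower and 20.2% higher (39.8% in either direction). The 27 make up 35.5% of the tested respiratory genes, and they include Ndufs5 and its copy Ndufs5-ps, whose counts are nearly identical and are no separate evidence. The differences were small: the median log2 fold change was -0.144, against 0.019 over all tested genes, and 69 of the 76 values were negative. In the higher direction 0 genes passed in edgeR even at an unadjusted p under 0.05, and 0 passed in DESeq2, which found 28 lower. The summed level of the 76 tested genes was 8656 ± 160 CPM in the Nur77 line and 9496 ± 131 CPM in the GFP line (SD, n = 4 each), and the ranges did not overlap. Without replicate 1 of the GFP line the count was 17, and 15 of the 27 genes were called whichever single library was left out.

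**Figure D1:**
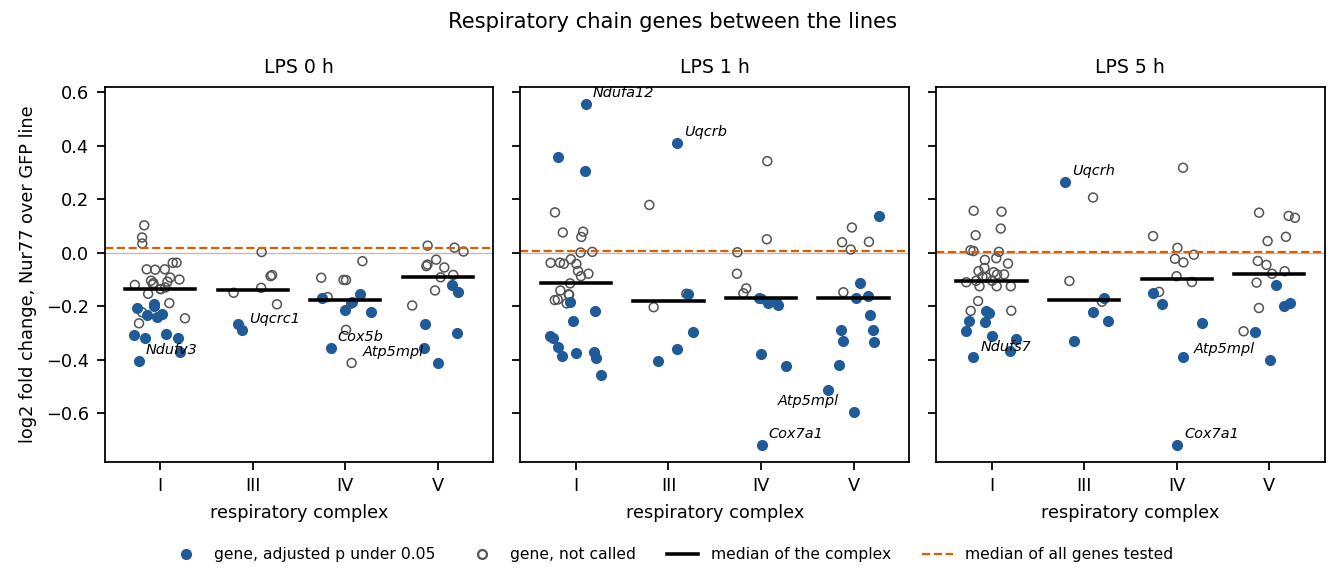
Log2 fold change of the Nur77 line over the GFP line for each tested respiratory chain gene, by complex (horizontal), at 0, 1 and 5 h of LPS (panels). Filled points passed an adjusted p of 0.05 and open points did not, black bars are complex medians and the dashed line is the median of all tested genes; at 0 h no filled point lies above 0.

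All complexes had their median below 0 at 0 h. Complex I had 12 of 35 genes lower and a median of -0.136, complex III 2 of 8 and -0.140, complex IV 6 of 14 and -0.176, and complex V 6 of 17 and -0.091. Without replicate 3 of the Nur77 line at 0 h the complex I median was -0.220. None of these medians was tested against another. In complex IV all 14 values were negative, and in complex I 32 of 35.

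In complex I, the accessory subunit gene Ndufv3 had 69.7, 68.1, 76.4 and 73.6 CPM in the Nur77 line and 91.1, 89.9, 89.8 and 109.9 CPM in the GFP line at 0 h. The groups did not overlap, and 1 GFP library was well above the other 3. Its log2 fold change was -0.40 (SE 0.12, adjusted p = 0.00966, edgeR). Ndufa7, another accessory subunit gene, was at 31.6 ± 1.47 CPM in the Nur77 line and 40.9 ± 1.28 CPM in the GFP line (SD, n = 4 each), a log2 fold change of -0.37 with an adjusted p of 0.00452 in edgeR. The iron-sulphur subunit gene Ndufs1, by contrast, was at 189 ± 5.99 and 194 ± 9.91 CPM in the Nur77 and GFP lines (SD, n = 4 each), and its log2 fold change of -0.04 did not pass the test, nor did its values at 1 and 5 h.

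In complex III, the core protein 1 gene Uqcrc1 had 154, 163, 160.2 and 142 CPM in the Nur77 line and 203, 192, 189 and 173 CPM in the GFP line at 0 h. The lines did not overlap. The log2 fold change was -0.29 (SE 0.06, adjusted p = 0.000582, edgeR). The core protein 2 gene Uqcrc2 was at 193 ± 4.04 CPM in the Nur77 line and 204 ± 6.17 CPM in the GFP line (SD, n = 4 each), and its log2 fold change of -0.08 did not pass the test at 0 h. Uqcr11, a small accessory subunit gene, was lower with a log2 fold change of -0.27 (adjusted p = 0.0207, edgeR), a call lost without replicate 1 of the GFP line or of the Nur77 line, where the adjusted p reached 0.068.

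In complex IV, Cox5b, the nuclear subunit gene whose protein binds zinc, had 81.0, 85.1, 84.3 and 78.1 CPM in the Nur77 line and 108, 98.8, 100.1 and 113 CPM in the GFP line at 0 h. The lines were fully separated, and the gene was at -0.35 on the log2 scale (SE 0.06, adjusted p = 3.21e-05, edgeR). Cox8a, the ubiquitous isoform of subunit 8, was at 107 ± 4.25 CPM in the Nur77 line and 125 ± 3.44 CPM in the GFP line (SD, n = 4 each), with a log2 fold change of -0.21 and an adjusted p of 0.0126 in edgeR. Cox4i1, Cox5a and Cox6b1 were also lower at 0 h, by 0.16 to 0.22 on the log2 scale, but each call was lost in some fits that left out 1 library. The Cox4i1 call was lost without replicate 1 or 4 of the GFP line, that of Cox6b1 without replicate 1 or 4 of the GFP line or replicate 2 or 4 of the Nur77 line, and that of Cox5a without replicate 1, 2 or 3 of the GFP line or replicate 1 or 2 of the Nur77 line. The log2 fold changes in these fits lay between -0.22 and -0.13, and those of Cox5a stayed near its value of -0.22 with all libraries.

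In complex V, Atp5mpl, the gene of a small subunit of the membrane part, had 69.9, 73.2, 82.7 and 72.0 CPM in the Nur77 line and 104, 99.2, 101 and 91.8 CPM in the GFP line at 0 h. The highest Nur77 library was below the lowest GFP library. Its log2 fold change was -0.41 (SE 0.10, adjusted p = 0.00159, edgeR). Atp5mpl lies on chromosome 12, where the 435 tested genes had a median log2 fold change of -0.410 and 65.5% were lower in the Nur77 line. It was the only tested respiratory gene there. The catalytic β-subunit gene Atp5b was at 1308 ± 33.1 CPM in the Nur77 line and 1449.5 ± 81.0 CPM in the GFP line (SD, n = 4 each). Its ranges overlapped, and its call at 0 h was lost in 6 of the 8 leave-one-out fits, all but those without replicate 4 of the GFP line or replicate 3 of the Nur77 line, with log2 fold changes from -0.16 to -0.12.

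At 1 h of LPS, 33 of the 76 genes were lower and 5 higher in the Nur77 line, where 24.8% of all tested genes were lower and 26.5% higher (51.2% in either direction). Without replicate 2 of the Nur77 line, 27 were lower and 3 higher, where 25.4% of all tested genes were lower and 25.5% higher, and 27 of the 38 calls were kept. Fitting only the groups compared gave 16 lower and 3 higher, where 18.4% of all tested genes were lower and 18% higher. The median was -0.154 against 0.006 over all tested genes, and -0.227 without replicate 1 of the Nur77 line. Complex V had 11 of 17 genes lower and 1 higher, complex IV 7 of 14 lower, complex III 4 of 8 lower and 1 higher, and complex I 11 of 35 lower and 3 higher. The complex V median was -0.169 with all libraries and -0.272 without replicate 1 of the Nur77 line, and that of complex I was -0.114 and -0.18. Without replicate 2 complex V had 6 genes lower and 0 higher, complex IV 5 lower, complex III 4 lower and 2 higher, and complex I 12 lower and 1 higher, with medians of -0.143 in complex V and -0.098 in complex I.

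The libraries of the Nur77 line at 1 h differed among themselves in these genes. The complex I core subunit gene Ndufv1, whose protein holds the NADH site, had 77.0, 57.5, 52.8 and 69.7 CPM in the Nur77 line and 79.8, 84.5, 88.6 and 82.2 CPM in the GFP line at 1 h. Replicates 2 and 3 of the Nur77 line were lowest, and no Nur77 library reached the lowest GFP library. The log2 fold change was -0.38 (adjusted p = 0.000391, edgeR), -0.34 without replicate 2 of the Nur77 line, and -0.06 at 0 h, which did not pass. Atp5g2, 1 of 3 genes for the same c-ring protein of ATP synthase, had 64.0, 36.6, 38.2 and 55.0 CPM in the Nur77 line and 62.0, 67.0, 74.4 and 72.4 CPM in the GFP line. Replicates 2 and 3 were again lowest, and replicate 1 lay within the GFP range. The log2 fold change was -0.51 (adjusted p = 0.00141, edgeR) and stayed called in every alternative, between -0.69 and -0.40. Ndufs3, Cox5a and Uqcrfs1, the gene of the Rieske iron-sulphur protein, had log2 fold changes of -0.45, -0.42 and -0.36 at 1 h, and all 3 were called in every alternative. Without replicate 2 they were at -0.39, -0.36 and -0.29.

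The 5 genes that were higher at 1 h were Ndufa12, Uqcrb, Ndufa5, Ndufs6 and Atp5pb. Uqcrb, which codes for the ubiquinone-binding protein of complex III, had 100.2, 130.5, 129 and 95.8 CPM in the Nur77 line and 91.0, 81.3, 83.1 and 87.9 CPM in the GFP line. All Nur77 libraries were above all GFP libraries, replicates 2 and 3 by the most. Its log2 fold change was 0.41 (SE 0.09, adjusted p = 0.000631, edgeR) and 0.34 without replicate 2 (adjusted p = 0.00264, edgeR). It was the only one of the 5 called in every alternative. Without replicate 2 of the Nur77 line, Ndufa12, Ndufs6 and Atp5pb lost their calls, at log2 fold changes of 0.49, 0.25 and 0.10. Without replicate 3, Ndufa12, Ndufa5, Ndufs6 and Atp5pb lost theirs, at 0.39, 0.26, 0.19 and 0.14. Leaving out GFP libraries also ended the calls of Ndufa12 (replicate 1 or 4), Ndufs6 (replicate 2) and Atp5pb (any of the 4).

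At 5 h of LPS, 23 of the 76 genes were lower and 1, Uqcrh, was higher in the Nur77 line, where 24.4% of all tested genes were lower and 21.9% higher (46.4% in either direction). DESeq2 gave 22 lower and 2 higher, and fitting only the groups compared gave 34 lower and 4 higher, where 29.5% of all tested genes were lower and 29.2% higher. The median was -0.104 against 0.002. Complex I had 9 of 35 genes lower, complex III 4 of 8, complex IV 5 of 14 and complex V 5 of 17. Ndufs7, a complex I core subunit gene next to the quinone site, had 22.5, 30.4, 25.0 and 22.5 CPM in the Nur77 line and 32.6, 34.0, 35.0 and 29.5 CPM in the GFP line at 5 h, and 1 Nur77 library lay above the lowest GFP library. Its log2 fold change was -0.39 (adjusted p = 0.00603, edgeR).

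**Figure D2:**
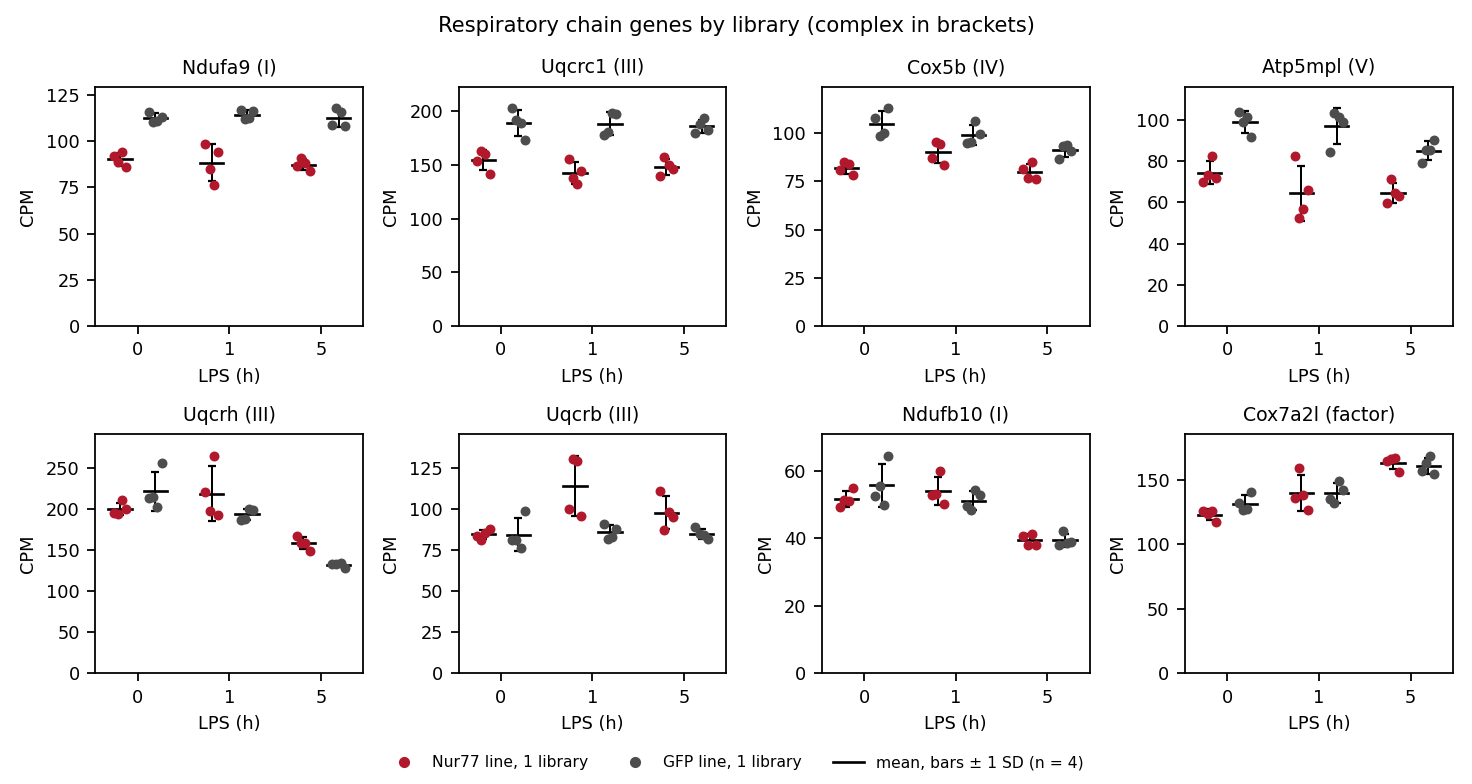
Level (CPM) in each library of 7 subunit genes and Cox7a2l at 0, 1 and 5 h of LPS. Nur77 libraries are red on the left and GFP libraries grey on the right at each time, with mean ± 1 SD (n = 4); Ndufa9, Uqcrc1 and Atp5mpl have lower means in Nur77 than in GFP libraries at all 3 times, and Ndufb10 was lower and Cox7a2l higher at 5 h of LPS than at 0 h in both lines.

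Lower in the Nur77 line at all 3 times were 11 genes, 14.5% of the 76, where 13.2% of all tested genes were, so the share was close to the background. When 1 library was left out at its own time, the count was 7 to 13. It was 7 without replicate 1 of the GFP line at 0 h, where Atp5b, Atp5c1, Cox5a and Ndufb8 lost their 0 h calls. Among the 11 were Ndufa3, Ndufa9, Ndufb8 and Ndufs8 of complex I, Uqcrc1 of complex III, Cox5a of complex IV, and Atp5b, Atp5c1, Atp5d and Atp5mpl of complex V. Uqcrc1 had a log2 fold change of -0.40 at 1 h (adjusted p = 9.05e-06, edgeR) and -0.33 at 5 h (adjusted p = 0.000117, edgeR). Atp5mpl had -0.59 at 1 h (adjusted p = 2.36e-05, edgeR) and -0.40 at 5 h (adjusted p = 0.00179, edgeR), where the medians of chromosome 12 were -0.441 and -0.455. Ndufa9, an accessory subunit gene chosen here after its values were seen, had 86.7, 90.7, 88.3 and 83.9 CPM in the Nur77 line and 109, 118, 116 and 108 CPM in the GFP line at 5 h. No Nur77 library reached the GFP range. Its log2 fold change was -0.32, -0.37 and -0.37 at 0, 1 and 5 h and kept its call in every alternative at each time. Over the 3 times, 45 genes (59.2%) were lower at least once and 6 (7.89%) were higher at least once, where 34.4% and 36.5% of all tested genes were. Of the 76 genes, 48 had a negative value at each of the 3 times, and the share over all tested genes is not given here.

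Transcript length differs between these genes and the rest of the table, so the values for short genes are given beside the line difference. The tested respiratory genes with a known length had a median transcript of 731.5 nucleotides, against 2840 for all tested genes, and 49 of 70 were under 1000. Among the 811 other genes with transcripts under 1000 nucleotides, the median log2 fold change was -0.054, -0.059 and -0.060 at 0, 1 and 5 h. Of these, 20% were lower and 9.25% higher at 0 h, 24.9% and 18.4% at 1 h, and 21.7% and 12.5% at 5 h. The part of transcript length in the line difference was not tested.

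**Figure D3:**
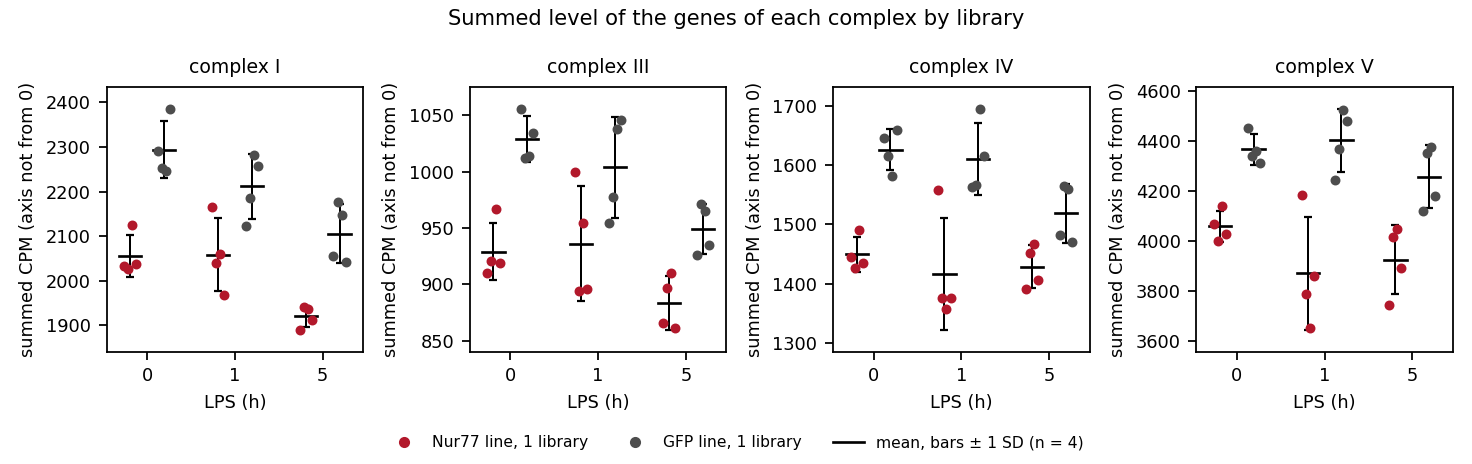
Summed CPM of the tested subunit genes of each complex in each library, at 0, 1 and 5 h of LPS, with Nur77 libraries (red) left of GFP libraries (grey). The vertical axes do not start at 0; at 0 h the sums of the Nur77 line are below those of the GFP line in each complex, without overlap.

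The sums by complex show the same libraries from the side of total level. They add CPM over genes of unlike transcript length, so genes with many counts weigh most. In complex V these were Atp5b and Atp5a1, with 562433 and 405122 counts over all libraries. The sum over the 76 genes also holds Ndufs5-ps beside Ndufs5. The sum of complex V was 4059 ± 60.5 CPM in the Nur77 line and 4367 ± 61.0 CPM in the GFP line at 0 h. The sums of complex I were 2056 ± 47.1 and 2294 ± 64.3 CPM, of complex III 929 ± 25.6 and 1029 ± 20.4 CPM, and of complex IV 1449 ± 28.9 and 1626 ± 34.7 CPM in the Nur77 and GFP lines (SD, n = 4 each). Over the time course the 76 tested genes of the Nur77 line had summed levels of 8656 ± 160, 8473 ± 414 and 8366 ± 221 CPM, and the GFP line 9496 ± 131, 9418 ± 304 and 9039 ± 270 CPM, at 0, 1 and 5 h. Per kilobase at 0 h, Atp5b was at 683 CPM in the Nur77 line and 757 in the GFP line. The second catalytic gene, Atp5a1, which codes for the α-subunit, was at 402 and 417, Cox4i1 at 446 and 496, and Uqcrc1 at 93.6 and 114 CPM per kilobase.

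After 5 h of LPS, 25 of the 76 genes (32.9%) were called in either direction in the Nur77 line and 33 (43.4%) in the GFP line, where 66.6% and 62.6% of all tested genes were. In the Nur77 line 21 of 76 genes were lower and 4 higher at 5 h than at 0 h, where 34.1% of all tested genes were lower and 32.5% higher. Fitting only the groups compared gave 31 lower and 8 higher, and the shares over all tested genes in that fit are not given here. In the GFP line 30 were lower and 3 higher, where 31.9% of all tested genes were lower and 30.6% higher. The shares lower, 27.6% and 39.5%, were near the background. The median log2 fold change was -0.082 in the Nur77 line and -0.116 in the GFP line, against -0.028 and -0.020 over all tested genes. The 21 genes lower in the Nur77 line were all among the 30 lower in the GFP line, so 27.6% of the 76 were lower in both, where 27% of all tested genes were. The shared genes were 100% of those lower in the Nur77 line and 70% of those lower in the GFP line, where over all tested genes the shares were 79.2% and 84.6%. The 3 genes higher in the GFP line, Cox7a2l, Ndufc2 and Ndufs4, were among the 4 higher in the Nur77 line, where the fourth was Uqcrb, a call lost in 7 of the 8 fits that left out 1 Nur77 library of 0 or 5 h and kept without replicate 2 at 5 h.

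**Figure D4:**
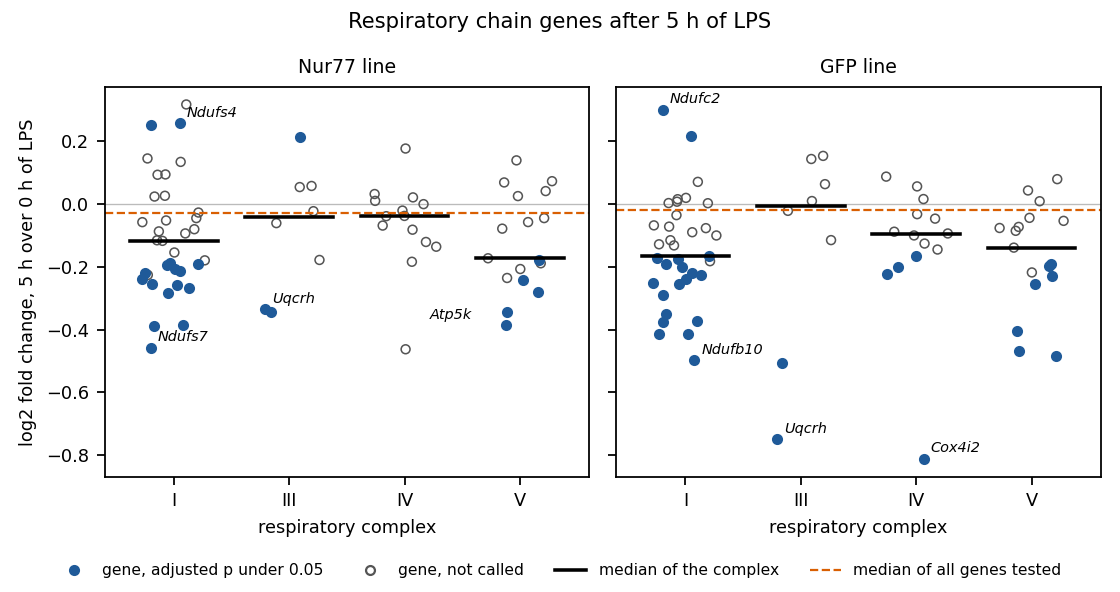
Log2 fold change at 5 h of LPS over 0 h for each tested respiratory chain gene, by complex, in the Nur77 line and in the GFP line. Filled points passed an adjusted p of 0.05, black bars are complex medians and the dashed line is the median of all tested genes; Uqcrh is among the lowest points of complex III in both lines.

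Of the complex I genes, 14 of 35 were lower at 5 h of LPS in the Nur77 line and 17 of 35 in the GFP line, or 40% and 48.6%, beside the 34.1% and 31.9% of all tested genes. Complex V had 5 and 7 of 17, complex III 2 and 2 of 8, and complex IV 0 and 4 of 14, and no complex was tested against another. Ndufb10, an accessory gene of the complex I membrane arm, had 40.7, 37.8, 41.4 and 38.0 CPM at 5 h and 49.3, 51.4, 51.1 and 54.7 CPM at 0 h in the Nur77 line. Its levels in the GFP line were 38.0, 42.2, 38.5 and 38.7 CPM at 5 h and 52.6, 55.5, 49.8 and 64.5 CPM at 0 h. In both lines the 5 h libraries lay below all 0 h libraries. The log2 fold changes were -0.39 in the Nur77 line (adjusted p = 5.25e-05, edgeR) and -0.50 in the GFP line (adjusted p = 1.43e-06, edgeR).

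The core subunit genes of complex I did not move together. Ndufv2, whose protein holds an iron-sulphur cluster, was lower at 5 h, with log2 fold changes of -0.28 in the Nur77 line and -0.25 in the GFP line (adjusted p = 1.5e-05 and 5.78e-05, edgeR). Ndufs7 was lower with log2 fold changes of -0.46 in the Nur77 line (adjusted p = 0.000993, edgeR) and -0.29 in the GFP line (adjusted p = 0.0238, edgeR), the second lost without replicate 1 of the GFP line at 0 h or replicate 4 at 5 h, with an adjusted p up to 0.079. Ndufs1 and Ndufv1 had log2 fold changes of -0.08 and -0.12 in the Nur77 line and -0.08 and 0.00 in the GFP line, and none of the 4 passed. In complex III, Uqcr11 had log2 fold changes of -0.34 and -0.51 in the Nur77 and GFP lines (adjusted p = 0.00207 and 2.63e-05, edgeR), with no overlap between the times in either. In the opposite direction the complex I gene Ndufs4, an accessory subunit gene known to be mutated in Leigh syndrome in humans, had log2 fold changes of 0.26 and 0.21 in the Nur77 and GFP lines (adjusted p = 0.00291 and 0.0107, edgeR).

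In complex V the small subunit gene Atp5k had 37.7, 34.5, 38.5 and 35.8 CPM at 5 h and 45.3, 46.9, 50.4 and 48.9 CPM at 0 h in the Nur77 line. Levels in the GFP line were 34.5, 40.5, 37.3 and 37.4 CPM at 5 h and 48.6, 49.7, 48.5 and 51.4 CPM at 0 h. Neither line had any overlap between the times. The log2 fold changes were -0.39 and -0.41 in the Nur77 and GFP lines (adjusted p = 1.98e-05 and 9.01e-06, edgeR). Atp5c1, the gene of the rotating γ-subunit, fell by 0.28 and 0.20 on the log2 scale in the Nur77 and GFP lines (adjusted p = 1.11e-05 and 0.000638, edgeR), whereas the catalytic pair Atp5a1 and Atp5b had values between -0.06 and 0.08 that did not pass. Ndufa11 and Atp5k, whose promoters hold the NRF1 palindrome printed above, were lower at 5 h in both lines; the 3 other genes with that palindrome, Atp5g2, Cox6a1 and Uqcrc1, were not called. The Ndufa11 call was lost without replicate 1 at 5 h in either line, with adjusted p values of 0.052 in the Nur77 line and up to 0.098 in the GFP line, and in the GFP line also without replicate 3 at 0 h.

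Cox7a2l was higher at 5 h in both lines. It had 164, 166, 167 and 156 CPM at 5 h and 126, 123, 126 and 117 CPM at 0 h in the Nur77 line. The GFP line had 157, 163, 169 and 155 CPM at 5 h and 132, 126, 127 and 140.5 CPM at 0 h. The 5 h libraries were above every 0 h library in both lines. The log2 fold changes were 0.41 in the Nur77 line (adjusted p = 2.41e-06, edgeR) and 0.29 in the GFP line (adjusted p = 0.000206, edgeR). Ndufc2, a complex I membrane arm gene, was at 71.9 ± 5.06 CPM at 5 h and 60.4 ± 5.74 CPM at 0 h in the Nur77 line, and at 71.4 ± 3.13 and 58.1 ± 5.32 CPM in the GFP line (SD, n = 4 each). Its log2 fold changes of 0.25 and 0.30 (adjusted p = 0.0477 and 0.0188, edgeR) were less firm. In the Nur77 line the call was lost in 6 of the 8 leave-one-out fits, and without replicate 1 at 0 h the value was 0.19; in the GFP line it was lost without replicate 1 or 3 at 0 h, at 0.27 and 0.24.

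At 1 h of LPS few genes passed in the GFP line: 1 gene, Atp5k, was lower than at 0 h and 0 were higher, where 7.63% of all tested genes were lower and 9.74% higher (17.4% in either direction). At an unadjusted p under 0.05 edgeR had 8 lower and 0 higher, and DESeq2 had 1 lower and 0 higher at the adjusted threshold, the 1 being Atp5g1 (-0.30, adjusted p = 0.0446, DESeq2) and not Atp5k. The edgeR count was 2 without replicate 4 of the GFP line at 1 h and 3 without replicate 2 of the Nur77 line at 1 h, which enters only through the shared spread and scaling. The Atp5k value was -0.20 (adjusted p = 0.0422, edgeR), and the call was lost without any single library but replicate 4 at 1 h, at values from -0.22 to -0.14. In the Nur77 line 8 genes were higher and 10 lower at 1 h than at 0 h, where 22.5% of all tested genes were higher and 21.8% lower (44.3% in either direction). This count depended on single libraries: it was 5 without replicate 2 at 1 h, 8 without replicate 3 and 39 without replicate 1. It was 1 in a fit of only the groups compared. Of the 18 calls 5 were kept without replicate 2, where 19.1% of all genes were higher and 19.0% lower. The shares over all genes in the other fits are not given here. The lowest called values at 1 h were those of Atp5g2 (-0.36), Ndufa11 (-0.35) and Atp5e (-0.35), an ATP synthase stalk gene. All 3 lost their calls without replicate 2 at 1 h, at values from -0.26 to -0.24. Ndufv3 was at 0.36, and at 0.19 with no call without replicate 2. Uqcrb alone was called in every alternative, with 114 ± 18.5 CPM at 1 h and 84.4 ± 2.87 CPM at 0 h (SD, n = 4 each), a log2 fold change of 0.43 and an adjusted p of 0.000516 in edgeR. In the GFP line it was at 85.8 ± 4.43 CPM at 1 h and 84.2 ± 9.93 CPM at 0 h (SD, n = 4 each), and the difference between the lines in this response, 0.41, did not pass (adjusted p = 0.0987, edgeR).

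Whether LPS acted differently in the lines was tested with the line-by-time interaction. At 1 h, 0 of 76 genes passed in edgeR, where 0.63% of all tested genes were higher and 0.549% lower (1.18% in either direction). At an unadjusted p under 0.05 there were 10 higher and 3 lower, and DESeq2 gave 0. The edgeR count was 11 without replicate 1, 6 without replicate 4 and 0 without replicate 2 of the Nur77 line at 1 h. Over all tested genes 1.79% passed without replicate 2, and the shares in the other fits are not given here. At 5 h, 1 of 76 genes passed, with a positive difference between the Nur77 and GFP responses, where 2.81% of all tested genes were higher and 5.13% lower (7.94% in either direction). At an unadjusted p under 0.05 there were 4 higher and 0 lower.

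That gene was Uqcrh. It had 167, 158, 159 and 149 CPM at 5 h and 196, 194, 211 and 199.7 CPM at 0 h in the Nur77 line. In the GFP line it had 133, 133, 135 and 128 CPM at 5 h and 213, 215, 202 and 257 CPM at 0 h. LPS lowered it in both lines without overlap, and at 5 h all Nur77 libraries were above all GFP libraries. The log2 fold change of 5 h over 0 h was -0.34 in the Nur77 line (adjusted p = 0.000656, edgeR) and -0.75 in the GFP line (adjusted p = 9.02e-09, edgeR). The interaction was 0.41 (SE 0.11, adjusted p = 0.0216, edgeR). Without replicate 4 of the GFP line at 0 h, the library with 257 CPM, it was 0.33 with an adjusted p of 0.0547, and without replicate 3 of the Nur77 line at 0 h a second gene passed. At 5 h Uqcrh was 0.26 higher in the Nur77 line (SE 0.08, adjusted p = 0.00841, edgeR), and at 0 h its value of -0.15 did not pass (adjusted p = 0.142). RefSeq lists 2 pseudogenes of Uqcrh, and the sources used here do not say how shared reads were counted.

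Several subunits come as isoforms from separate genes, which are compared here per kilobase. For subunit 4 of complex IV, Cox4i1 was at 446 and 496 CPM per kilobase in the Nur77 and GFP lines at 0 h, and the hypoxia-regulated isoform Cox4i2 at 1.33 and 1.89. For subunit 6a, the ubiquitous Cox6a1 was at 180 and 202, and the heart and muscle isoform Cox6a2 at 14.8 and 16.8. For subunit 7a, the ubiquitous Cox7a2 was at 169 and 181 and the muscle isoform Cox7a1 at 4.80 and 5.87. In each pair the ubiquitous form was the higher, and Cox6b2, Cox8b and Cox8c were at 0 or 0.5 counts in all.

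Among the minor isoforms, Cox6a2 had 9.04, 8.99, 9.95 and 7.29 CPM in the Nur77 line and 11.1, 11.4, 11.6 and 12.4 CPM in the GFP line at 5 h. The lines did not overlap, and the log2 fold change was -0.39 (SE 0.11, adjusted p = 0.00704, edgeR). Cox6a1 had values of -0.17, -0.15 and -0.15 at 0, 1 and 5 h, none of which passed. Cox7a1 was lower in the Nur77 line at 1 h and at 5 h with a log2 fold change of -0.72 each time, at 0.740 to 3.31 CPM per library. The call at 1 h was lost without replicate 2 of the Nur77 line or replicate 3 or 4 of the GFP line, at values from -0.65 to -0.50. The call at 5 h was lost without replicate 1 or 4 of the Nur77 line or replicate 1, 2 or 3 of the GFP line, at values from -0.72 to -0.62. Cox4i2 was lower at 5 h than at 0 h in the GFP line, with a log2 fold change of -0.81 (adjusted p = 0.0216, edgeR), with overlapping ranges and levels of 0.623 to 1.77 CPM. That call was lost without replicate 1 or 2 at 0 h or replicate 2 at 5 h, with an adjusted p up to 0.073.

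The c-ring of ATP synthase is made from 3 genes that code for the same mature protein. Atp5g3 was at 211 and 208 CPM per kilobase in the Nur77 and GFP lines at 0 h, and Atp5g2 at 85.3 and 97.8, whereas no length was known for Atp5g1. Atp5g1 had 24.5, 23.5, 22.2 and 24.6 CPM at 5 h and 34.7, 33.2, 32.4 and 32.2 CPM at 0 h in the GFP line. The times did not overlap, and the log2 fold change was -0.48 (adjusted p = 0.000408, edgeR). In the Nur77 line it was at 26.1 ± 3.20 CPM at 5 h and 26.8 ± 4.70 CPM at 0 h (SD, n = 4 each), a log2 fold change of -0.05 that did not pass. The difference between these responses, 0.44, did not pass either (adjusted p = 0.0869, edgeR).

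Ndufa4, a complex IV subunit gene, was at 98.1 ± 4.41 CPM in the Nur77 line and 100.4 ± 4.10 CPM in the GFP line at 0 h (SD, n = 4 each), and its log2 fold change of -0.03 did not pass. Its paralogue AA467197, the mouse counterpart of human NMES1, is known to be induced in inflammatory macrophages and was too low to be tested. AA467197 had 0.188, 0.144, 0.148 and 0.0911 CPM in the Nur77 line and 0.950, 0.757, 0.409 and 0.742 CPM in the GFP line at 5 h. These rest on 10 and 52.5 counts in all, and the lines did not overlap. At 0 and 1 h its group means were at most 0.0653 CPM.

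Other mitochondrial genes were counted from lists chosen with earlier results of these data known, and no list was tested. Of 14 tested regulators of respiratory gene transcription, 1 was higher and 2 lower at 0 h in the Nur77 line, shares below the 20.2% higher and 19.7% lower of all tested genes. The lower ones were Ppargc1a and Yy1, a zinc-finger factor (log2 fold change -0.33, adjusted p = 0.00101, edgeR), and the higher one was Tfam, the mitochondrial transcription factor A gene. Ppargc1a had 0.564, 0.687, 0.654 and 0.454 CPM in the Nur77 line and 11.6, 11.4, 16.04 and 11.9 CPM in the GFP line at 0 h. Every GFP library was far above every Nur77 library. The log2 fold change was -4.42 (SE 0.21, adjusted p = 3.38e-15, edgeR), with -4.50 at 1 h and -4.78 at 5 h, and all 3 were called in every alternative. At 5 h Ppargc1a had 0.0377, 0, 0.0742 and 0.182 CPM in the Nur77 line and 1.68, 1.96, 2.09 and 1.78 CPM in the GFP line, the Nur77 values resting on 4 counts in all.

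**Figure D5:**
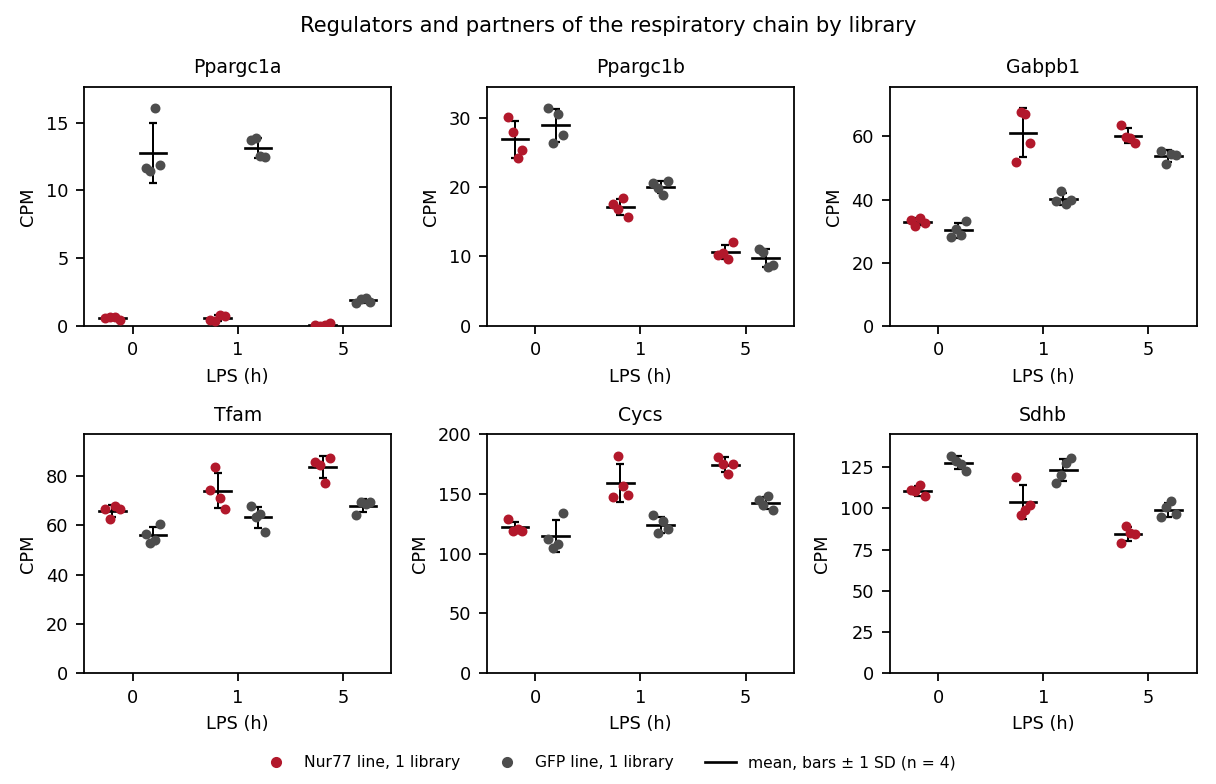
Level (CPM) in each library of the regulator genes Ppargc1a, Ppargc1b, Gabpb1 and Tfam, of cytochrome c (Cycs) and of the complex II gene Sdhb at 0, 1 and 5 h of LPS, with Nur77 libraries (red) left of GFP libraries (grey) and mean ± 1 SD (n = 4). Ppargc1a is close to 0 in every Nur77 library, and Ppargc1b is lower at 5 h than at 0 h in both lines.

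LPS lowered both PGC-1 coactivator genes. Ppargc1a was lower at 5 h than at 0 h, with log2 fold changes of -3.11 in the Nur77 line (adjusted p = 9.52e-06, edgeR) and -2.76 in the GFP line (adjusted p = 1.04e-13, edgeR). Ppargc1b had 10.2, 10.4, 9.65 and 12.03 CPM at 5 h and 30.1, 27.9, 24.1 and 25.4 CPM at 0 h in the Nur77 line. The GFP line had 11.1, 10.6, 8.42 and 8.83 CPM at 5 h and 31.3, 26.3, 30.5 and 27.4 CPM at 0 h. The times were fully separated in both lines, with log2 fold changes of -1.35 and -1.56 in the Nur77 and GFP lines (adjusted p = 5.13e-12 and 1.81e-13, edgeR). Between the lines Ppargc1b did not pass at 0 h (-0.10, adjusted p = 0.376) or at 5 h (0.11, adjusted p = 0.404). Gabpb1, a partner subunit of GABPA, was higher at 5 h than at 0 h, with log2 fold changes of 0.87 and 0.83 in the Nur77 and GFP lines. At 1 h it was at 61.2 ± 7.62 CPM in the Nur77 line and 40.2 ± 1.83 CPM in the GFP line (SD, n = 4 each), and its interaction at 1 h was 0.48 (adjusted p = 0.0176, edgeR). That call was lost without replicate 4 of the GFP line at 0 h, replicate 2 of the Nur77 line at 0 h or replicate 3 of the Nur77 line at 1 h, with values of 0.43 to 0.46 and adjusted p from 0.0504 to 0.0614, and in a fit of only the groups compared. Over this list 6 genes were higher and 2 lower at 5 h in the Nur77 line, and 7 higher and 4 lower in the GFP line, where 32.5% and 30.6% of all tested genes were higher and 34.1% and 31.9% lower in the Nur77 and GFP lines.

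Complex II, which feeds electrons from succinate, has subunits encoded only in the nucleus. Of its 8 subunit and assembly genes, 1 was higher and 3 lower at 0 h in the Nur77 line, 1 and 5 at 1 h (1 and 4 without replicate 2 of the Nur77 line), and 1 and 4 at 5 h, where 19.7%, 24.8% and 24.4% of all tested genes were lower at these times. The catalytic subunit gene Sdha was at -0.17 at 0 h (adjusted p = 0.00511, edgeR), and the higher one was the assembly factor gene Sdhaf1, at 26.9 ± 1.203 CPM in the Nur77 line and 17.6 ± 0.578 CPM in the GFP line (SD, n = 4 each), a log2 fold change of 0.61 (adjusted p = 1.16e-06, edgeR). At 5 h against 0 h, 1 was higher and 4 were lower in each line, where 34.1% and 31.9% of all tested genes were lower in the Nur77 and GFP lines. Among the 4 were Sdhd, a membrane anchor gene, at -0.44 and -0.36, and Sdhb, the iron-sulphur subunit gene, at -0.39 and -0.36 in the Nur77 and GFP lines.

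Of the 4 tested chain components whose symbols fall outside the rule, the ATP synthase inhibitor gene Atpif1 stood out at 0 h with 166, 174, 183 and 166 CPM in the Nur77 line and 270.2, 259.7, 250.6 and 305 CPM in the GFP line. The lines were far apart, at -0.66 on the log2 scale (SE 0.08, adjusted p = 4.98e-07, edgeR). At 1 h cytochrome c1 (Cyc1, of complex III) was lower at -0.51 and cytochrome c (Cycs) higher at 0.36 in the Nur77 line (adjusted p = 0.000136 and 0.000197, edgeR), and at -0.46 and 0.29 without replicate 2. Cycs was higher at 5 h than at 0 h by 0.52 in the Nur77 line and 0.31 in the GFP line (adjusted p = 5.96e-07 and 0.000465, edgeR). Among 7 carriers of nucleotides, phosphate and protons, 1 was higher and 3 lower at 0 h in the Nur77 line, led by the uncoupling protein gene Ucp2 at -0.56 and the outer membrane channel gene Vdac1 at -0.47. Of 13 supercomplex and cristae genes 1 was higher and 3 were lower, led by Higd1a at -0.58 and Chchd6 at -0.52. Over all tested genes 20.2% were higher and 19.7% lower at 0 h.

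Assembly factors were called in both directions. In the Nur77 line at 0 h, 1 of 15 complex I factors was higher and 1 lower, 2 of 6 complex III factors were higher, 2 of 22 complex IV factors were higher and 7 lower, and 0 of 5 complex V factors passed. Of all tested genes, 20.2% were higher and 19.7% lower. Cox16 (-0.42), one of the lower complex IV factors, lies on chromosome 12, and Coa4 was at -0.55. After LPS, the complex III factor gene Uqcc3 was at 7.08 ± 0.291 CPM at 5 h and 12.1 ± 1.26 CPM at 0 h in the Nur77 line, and at 6.40 ± 0.576 and 13.3 ± 1.14 CPM in the GFP line (SD, n = 4 each), log2 fold changes of -0.77 and -1.05. Lyrm7, a chaperone gene for the Rieske protein, was at -1.16 and -1.04 and Bcs1l, whose protein inserts it, at -0.71 and -0.61, in the Nur77 and GFP lines. All of these passed in every alternative, while Uqcrfs1, the gene of the Rieske protein itself, was at 0.05 and 0.14 and did not pass. The copper chaperone gene Cox17 was higher at 0.78 and 0.55, and Cmc2, which codes for another complex IV factor, was lower at -0.90 and -0.81, in the Nur77 and GFP lines (adjusted p at most 2.59e-06, edgeR).

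In the citric acid cycle list, 3 of 18 genes were higher and 7 lower at 0 h in the Nur77 line, where 20.2% of all tested genes were higher and 19.7% lower. The 2 with the smallest p, Dlst and Dld, at -0.63 and -0.52, both lie on chromosome 12. Idh2, which codes for the mitochondrial NADP isocitrate dehydrogenase, was at 0.31 (adjusted p = 0.000283, edgeR). At 5 h against 0 h Dld, a subunit gene of the pyruvate and oxoglutarate dehydrogenase complexes, was higher at 1.01 and 0.84, and Idh2 lower at -0.49 and -0.38, in the Nur77 and GFP lines, each called in every alternative. With the same background, of 78 mitochondrial ribosomal protein genes 3 were higher and 10 lower at 0 h, with a median of -0.055, and of 83 tested cytosolic ribosomal protein genes 1 was higher and 4 lower, with a median of -0.040. After 5 h of LPS the mitochondrial ribosomal genes in the Nur77 line had 26 higher and 24 lower, against 16 higher and 26 lower in the GFP line, and the cytosolic ones 32 higher and 0 lower in the Nur77 line, against 12 higher and 1 lower in the GFP line, where 32.5% and 30.6% of all tested genes were higher and 34.1% and 31.9% lower in the Nur77 and GFP lines. In the 5 h interaction, 0 of the 83 cytosolic genes passed in edgeR (2 higher and 0 lower at an unadjusted p under 0.05, and 0 in DESeq2), and 0 of the 78 mitochondrial ones were higher and 1 lower. Mitochondrially encoded chain genes were not analysed here.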

How the data were processed

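RNA was extracted with RNeasy columns and on-column DNase digestion, and KAPA mRNA HyperPrep was used to make mRNA libraries, as the labels' protocols state. Reads were processed with CASAVA 1.8.2 and HISAT2 2.1.0 on mm10, per the submitters' processing notes. The sources used here give no counting tool, strand setting or annotation. The authors' deposited file was a table of estimated counts per RefSeq transcript (multiples of 0.5, not normalized, 42361 transcripts). Reads shared between isoforms, overlapping genes or near-identical copies could be split or counted more than once: Ndufs5-ps had 1 to 1.01 times the count of Ndufs5 in each library.

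Transcripts were given gene names from RefSeq GRCm38.p6 (42203 matched) or GENCODE M21 (65 more), and the transcript with the highest mean stood for each gene. Counts were rounded to whole numbers. The test was edgeR 4.0.16's robust quasi-likelihood test (R 4.3.3) with 6 group means over 24 libraries, filterByExpr, TMM scaling (factors 0.896 to 1.14) and Benjamini-Hochberg adjustment over 12213 genes, checked on simulated data. Lengths came from GENCODE M21. Alternatives were DESeq2 1.42.0, its size factors, other filters, the mean over transcripts, a fit of the compared groups alone, a block for the replicate number and leaving out each library.

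The genes and lists were chosen with earlier results of these data known. Genes were named from, per comparison, the 3 largest rises and 3 largest falls among called genes at 10 CPM or more, fixed isoform sets and core subunits, the untested genes, the 2 smallest p in each further list, genes behind a small count and, beyond that rule, genes that illustrate a call's stability, which were picked with their values known. Of these, 1 gene is not reported here.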

Additional observations from a re-analysis of the deposited data

Results flagged for a closer look

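Values far from the other 3 libraries of their group (Dixon's test at 95%) were found in 10 of 252 groups, over 42 genes; chance alone gives about 5%, or 12.6. Replicate 1 of the Nur77 line at 5 h held 4 of the 10. It had 121 CPM of Atp5g3 (137 to 139 in the others), 1.36 CPM of Cox4i2 (0.668 to 0.729), 12.9 CPM of Ndufa11 (15.1 to 15.5) and 26.2 CPM of Ndufa7 (32.7 to 33.0). Replicate 3 of that group had 183 CPM of Ndufs1 (176 to 178).

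In the GFP line, replicate 4 at 0 h had 109.9 CPM of Ndufv3 (89.8 to 91.1 in the others). At 1 h, replicate 1 had 136 CPM of Cox5a (156 to 159), and replicate 3 had 0.261 CPM of AA467197 (0 in the others). At 5 h, replicate 1 had 12.6 CPM of Ndufa11 (14.4 to 14.5), and replicate 2 had 42.2 CPM of Ndufb10 (38.0 to 38.7).

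The effect of LPS at 5 h differed between the lines for Uqcrh by the interaction test, with a difference of 0.41 on the log2 scale between the Nur77 and GFP lines (adjusted p = 0.0216, edgeR).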

How the results depend on the processing

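No called value changed direction under any alternative. The median 1 h interaction of complex I, for which no test was made, was 0.039 with all libraries and -0.034 without replicate 1 of the Nur77 line at 1 h. Fitting only the groups compared gave 19 called respiratory genes for the lines at 1 h and 38 at 5 h. For LPS it gave 1 at 1 h and 39 at 5 h in the Nur77 line and 2 at 1 h in the GFP line. It gave 3 for the 5 h interaction, and the cause was not tested. Most shares over all tested genes in these and the following fits are not given here, so the counts describe stability only. For LPS at 1 h in the GFP line the count was 0 with DESeq2 size factors, without a filter or with the mean over transcripts, and 2 with a filter of 1 CPM in 4 libraries. Without genes that have a named pseudogene and non-subunits, it was 0, as for the 5 h interaction, since Atp5k and Uqcrh were among them; this alternative was chosen after seeing the data. Leaving out single libraries gave 17 to 30 (lines at 0 h), 29 to 49 (1 h), 18 to 29 (5 h), 5 to 39 and 21 to 28 (LPS at 1 and 5 h, Nur77 line), 0 to 3 and 27 to 36 (GFP line), and 0 to 11 and 0 to 2 (interaction at 1 and 5 h). Whether the labels' replicate numbers pair the samples cannot be decided from the correlations of same-numbered deviations, which were -0.265 to 0.170. For the lines at 0 h they were -0.0119 to 0.170, with 3 of 4 pairs over 0.1. A replicate block gave 24, 36 and 22 calls for the lines, 17 and 23 for LPS in the Nur77 line, 1 and 32 in the GFP line, and 0 and 1 for the interaction; the 1 in the GFP line was Atp5g1, not Atp5k. Cox4i2, Cox7a1, Ppargc1a in the Nur77 line and AA467197 rest on few counts.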
